A study of Mus musculus with 2 samples.

Results

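The bone of the Loaded fracture site lay in the section as 2 bands of spots, and the expression of all genes was compared between them. The bone spots were the 146 barcodes that the study's supplementary list assigns to the bone of the Loaded section, of 1436 spots under tissue in that section and 3398 in the whole series. The positions of these spots were projected on their minor principal axis and divided by 2-means into side 1, with 73 spots, and side 2, with 73 spots, where side 2 has the smaller row coordinate. No expression value entered this division. Every ratio is side 2 over side 1.

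The data are spatial gene expression measurements of femoral fracture sites in female bone cell reporter mice, which carry fluorescent reporters at the bone sialoprotein and tartrate-resistant acid phosphatase genes. Mice received a mid-diaphyseal femoral osteotomy at 12 weeks of age, stabilized with an external fixator, and were euthanized at 17 weeks. The Loaded fracture site was loaded cyclically 3 times per week from week 3 to week 5 after surgery, whereas the Control site was sham-loaded. The study used 4 mice, and the series holds 1 Loaded section and 1 Control section, so no value here has an error between animals. A spot can cover several cells of different types, and fewer cells of a type cannot be told apart from less RNA per cell.

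A femoral shaft in longitudinal section appears as 2 cortices that enclose the marrow cavity, with muscle attached outside the periosteum. Osteoblasts deposit the collagenous matrix and its mineral-binding proteins, osteocytes are osteoblasts that became embedded in it, and osteoclasts dissolve it with acid and proteases. The muscles around the mouse femur differ in fiber composition, and each fiber type is built on its own myosin heavy chain. The fast glycolytic type uses *Myh4*, the intermediate fast type *Myh1*, the fast oxidative type *Myh2* and the slow type *Myh7*.

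The spots of side 1 held 185711 UMIs (unique molecular identifiers, each counting 1 captured molecule), with a median of 2626 per spot. The spots of side 2 held 223309 UMIs, with a median of 2616 per spot. Levels are normalized counts per spot: the UMIs of a gene were added up over a side and divided by the sum of the size factors there, which was 64.5 for side 1 and 81.5 for side 2. Intervals are exact 95% intervals that cover counting error only, because neighboring spots of a single section cannot stand in for animals. Differences were therefore not tested, and a gene was called past 2-fold at a log2 ratio of 1 or more in size among genes with at least 30 UMIs.

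The division by principal axes did not follow the bands exactly. The major axis was tilted by 30.2° against the rows of the capture grid, and grid row 24, which separates the bands, held no bone spot. In all, 12 spots fell on the other side of that row from the rest of their side, 5 of side 1 and 7 of side 2. The side 2 spots nearest to the split lay 0.918, 2.55 and 6.89 µm from it and held 644, 4626 and 2568 UMIs. The nearest side 1 spots lay 41.7, 42.8 and 43.4 µm from it and held 2177, 1859 and 1743 UMIs. A division at the empty row, with 75 and 71 spots, was therefore also computed, after the values had been seen, with 4 stretches along the grid rows. Under it, 4 of the genes named here with at least 30 UMIs had the opposite sign, *Col1a1* with 0.20, *Sparc* with 0.09, *Thbs2* with 0.13 and *Ier2* with -0.05.

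**Figure D1:**
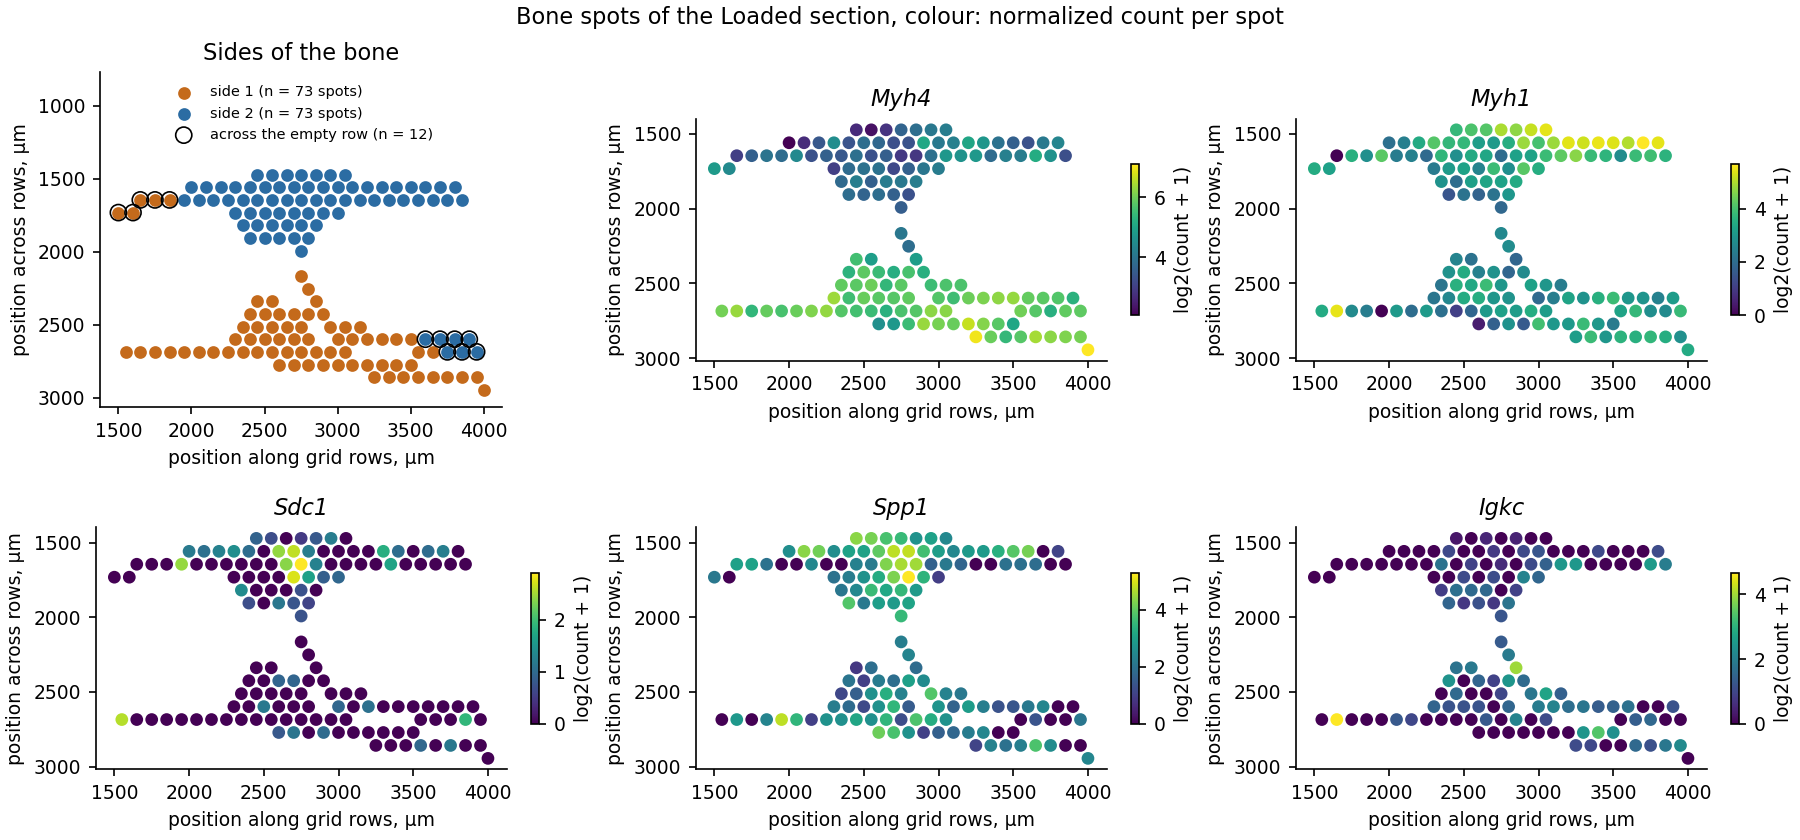
The first panel shows the 146 bone spots at their positions in µm, colored by side, with the 12 spots across the empty row circled, and the others show log2(normalized count + 1) of 5 genes. *Myh4* is higher over side 1 and *Myh1* along the upper right edge of side 2, and the highest *Sdc1* and *Spp1* spots lie close together in the middle of side 2.

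Both sides carried bone transcripts. The 11 osteoblast genes with a value took 6.69% of the UMIs of side 1 (exact binomial interval 6.58 to 6.80) and 7.71% of side 2 (7.60 to 7.82), against 1.25% in the remaining spots of the section. Of 18 osteoblast and osteocyte genes, 17 had a larger share of UMIs on both sides than in the remaining spots. Muscle transcripts were also present on both sides, as 3 lists of muscle genes took 10.99% of the UMIs of side 1 (10.85 to 11.14) and 7.05% of side 2 (6.94 to 7.16). In single spots the muscle share ranged from 3.70% to 27.1% on side 1 and from 2.82% to 14.5% on side 2. In all, 5 spots of side 1 had a muscle share below 5%, against 17 spots of side 2.

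Most genes differed little between the sides. Of 2869 genes with at least 30 UMIs, 75 (2.61%) were past 2-fold higher on side 2 and 64 (2.23%) were past 2-fold lower, 4.84% in either direction. With library totals in place of size factors, the counts were 96 and 51. The median log2 ratio over all 2869 genes was 0.01, and the 5th and the 95th percentile were -0.78 and 0.84. The spots were cut into 4 stretches at the quartiles of the major axis, which is tilted against the grid rows. In all 4 stretches, 342 genes (11.9%) had the same direction. Of these, 25 (0.871% of all genes) were past 2-fold higher on side 2, and 27 (0.941%) past 2-fold lower. Random directions in 4 stretches would give a share close to 11.9%, so this agreement alone does not mark a gene. With the division at the empty row, 92 genes were past 2-fold higher and 88 lower, and 15 of the 25 and 17 of the 27 genes met both criteria again. The stretches were unevenly filled, from 10 to 27 spots per side. Stretch 1 of side 1 held 8035 UMIs, so that low genes often had 0 there. Of its 10 spots, 5 lay across the empty row, as did 7 of the 12 spots of side 2 in stretch 4. When the Control bone was divided in the same way, 28.8% of 3566 genes were past 2-fold between its sides, which held 64 and 67 spots. The median muscle share per spot was 8.02% and 21.7% on sides 1 and 2 of Control, against 11.7% and 7.09% in Loaded. The sides are not matched between animals, and the difference between the sections has no test.

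Fast glycolytic muscle genes gave large differences from many UMIs. *Myh4* was higher on side 1, with levels of 52.2 and 14.7, and *Myh1*, its neighbor in the genome, was higher on side 2, with 6.64 and 14.4. The genes lie in the order *Myh2*, *Myh1*, *Myh4* on the forward strand of chromosome 11 (mm10), where *Myh1* spans chr11:67200052-67224575 and *Myh4* spans chr11:67238029-67260446. The 250 bases before the annotated start of each (RefSeq, GRCm38.p6, forward strand) are shown because these neighbors had opposite ratios. The spans above are from GENCODE, which places the starts differently, so that the *Myh1* window overlaps the first bases of its span and the *Myh4* window ends before its span. Capitals mark the longest run of bases found in all 3, which is 20 bases long and starts 130, 165 and 163 bases before the start of *Myh2*, *Myh1* and *Myh4*.
Myh2, chr11:67170777-67171026: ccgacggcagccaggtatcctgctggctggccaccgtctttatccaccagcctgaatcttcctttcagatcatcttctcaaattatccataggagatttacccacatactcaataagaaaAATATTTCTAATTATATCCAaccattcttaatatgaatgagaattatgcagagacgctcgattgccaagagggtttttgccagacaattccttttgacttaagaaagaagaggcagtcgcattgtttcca
Myh1, chr11:67199852-67200101: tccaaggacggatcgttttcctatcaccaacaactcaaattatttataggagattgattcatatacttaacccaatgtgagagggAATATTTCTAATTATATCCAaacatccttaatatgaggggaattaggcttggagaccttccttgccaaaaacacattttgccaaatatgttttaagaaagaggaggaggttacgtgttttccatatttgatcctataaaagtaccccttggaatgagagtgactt
Myh4, chr11:67237562-67237811: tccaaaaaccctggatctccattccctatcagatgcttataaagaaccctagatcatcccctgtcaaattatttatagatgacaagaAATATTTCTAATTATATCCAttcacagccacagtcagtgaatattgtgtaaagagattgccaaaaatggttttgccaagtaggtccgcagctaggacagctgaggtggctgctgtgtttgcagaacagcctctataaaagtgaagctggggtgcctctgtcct
Among 27025 upstream windows of the same length, the shared run was found on either strand in these 3 only (0.0111%). The letters TATAAA were found 32 bases before the start of *Myh1* and 31 bases before that of *Myh4* (in 13.0% of all windows on either strand). These are the forward-strand matches nearest to the start, and the window of *Myh4* held 2 such matches on that strand. The window of *Myh4* held 2 E-boxes (CANNTG, in 66.0% of windows) and 1 CArG box (in 1.40%), and neither was found in the windows of *Myh1* and *Myh2*. The MEF2 consensus was found 1 time each in *Myh1* and *Myh4* (in 3.01% of windows), and each of these matches also contains TATAAA on the reverse strand. These matches describe the letters only.

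*Myh4*, the heavy chain of fast glycolytic fibers, was counted 3362 times on side 1 and 1202 times on side 2, a level of 52.2 against 14.7 normalized counts per spot. Its level in single spots ran from 6.95 to 136 on side 1 with a median of 53.6, and from 3.17 to 58.2 on side 2 with a median of 13.6. The log2 ratio was -1.82 (-1.92 to -1.73). In stretches 1 to 4 its level was 35.5, 53.8, 41.2 and 69.99 on side 1 and 9.36, 13.4, 18.9 and 40.1 on side 2, so that every stretch of side 1 was above its counterpart. Divided at the empty row, the log2 ratio was -2.08.

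*Myh1* had a level of 6.64 on side 1 (428 UMIs) and 14.4 on side 2 (1178 UMIs), a log2 ratio of 1.12 (0.96 to 1.28). In stretches 1 to 4 its level was 8.68, 5.53, 5.54 and 8.69 on side 1 and 11.1, 13.8, 30.4 and 16.3 on side 2. The 2 ranges over stretches did not overlap with this division. Divided at the empty row they did, with 5.52 to 9.02 on side 1 and 7.80 to 31.6 on side 2. *Myh1* was among the 12 highest genes, a place that required the same direction in all 4 stretches. *Myh7*, the slow heavy chain, had levels of 2.56 and 5.40, a log2 ratio of 1.08 (0.81 to 1.34), but was higher on side 1 in stretch 1, where its level was 12.2 against 7.33. That exception was absent from the bands divided at the empty row, where *Myh7* had a log2 ratio of 1.47 and was higher on side 2 in all 4 stretches.

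Other genes of fast glycolytic fibers followed *Myh4*. Parvalbumin (*Pvalb*), which buffers calcium in these fibers, had 1632 UMIs on side 1 and 617 on side 2, a log2 ratio of -1.74 (-1.88 to -1.61). The log2 ratio was -1.31 for *Actn3*, the fast-fiber alpha-actinin, and -1.28 for *Casq1*, the fast calsequestrin. For the myosin-binding proteins *Mybpc2* and *Mybph* it was -1.46 and -1.20. All of these were lower on side 2 in each of the 4 stretches, which the ranking that named them required. Of the 12 genes of the fast muscle list, 4 were past 2-fold lower on side 2, beside 2.23% of all genes. 1 gene, *Myh1*, was past 2-fold higher, beside 2.61% of all genes, and the list median was -0.87. *Tnnc2*, *Atp2a1* and *Tnnt3*, the other members with over 1000 UMIs on each side, had log2 ratios of -0.87, -0.68 and -0.60, and each was lower on side 2 in 3 stretches.

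The slow muscle list had ratios in the other direction. All 7 of its members with a value had a log2 ratio above 0, with a median of 0.44, and the intervals of 2 lay above 0. Past 2-fold was 1 of them, beside 2.61% of all genes. The share of the list in all UMIs was larger on side 2 only in stretches 3 and 4. In stretch 1 it was 1.19% on side 1 and 0.624% on side 2. Divided at the empty row, this share was larger on side 2 in all 4 stretches. The slow troponin *Tnnt1* had a log2 ratio of 0.86 (0.55 to 1.18), and *Tnni1* and *Tnnc1* had 0.36 and 0.34 with intervals that held 0. In the bands divided at the empty row *Tnni1* had 0.63 (0.25 to 1.01), *Tnnc1* 0.96 (0.44 to 1.49) and the list a median of 0.81. Genes used by both fiber types had a median of -0.40 over 8 members, with 6 below 0 and 2 above, and a highest value of 0.71. Skeletal actin *Acta1* had -0.55, and muscle creatine kinase *Ckm* had -0.78, the lowest of the list. Divided at the empty row, *Eno3* of this list had -0.67 (-0.85 to -0.49) and *Tcap* 0.19 (0.00 to 0.38).

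The outer tissue beside the bone carried the same contrast, whereas for *Myh4* the inner tissue did not. Spots outside the bone list within 250 µm of a bone spot were assigned to the side of the nearest bone spot, and were called outer where they lay beyond it as seen from the split. All others were called inner, so that an inner spot need not lie between the bands. Of the UMIs of 4 myosin genes (*Myh4*, *Myh1*, *Myh2* and *Myh7*, a set chosen after the values were seen), *Myh4* took 88.8% in the 85 outer spots beside side 1 and 17.2% in the 68 outer spots beside side 2. *Myh1* took 8.71% and 54.7%, and *Myh7* 1.78% and 24.05%, respectively. In the inner spots, *Myh4* took 52.3% beside side 1 and 50.6% beside side 2, *Myh1* 11.8% and 22.4%, and *Myh7* 31.3% and 21.0%. Within the bone, *Myh4* took 83.5% on side 1 (exact binomial interval 82.4 to 84.7) and 40.5% on side 2 (38.8 to 42.3). The myosin genes are similar in sequence, and whether reads were split between them was not tested. Because probes differ between genes, these shares compare places and do not give the proportions of the proteins or transcripts. In Control, whose sides are not matched to those of Loaded, the share of *Myh4* was 44.0% on side 1 and 88.4% on side 2.

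Across side 2, *Myh1* was higher toward the outside and *Myh4* was not. In the 36 spots of side 2 farther from the split than the median of their stretch, *Myh1* had a level of 19.7 against 8.05 in the 37 nearer spots, a log2 ratio of 1.29 (1.10 to 1.48). *Myh4* had 12.6 against 17.4, a log2 ratio of -0.47 (-0.64 to -0.31). The 7 side 2 spots across the empty row all lay in stretch 4, most of them among the nearer spots. Their *Myh4* levels ran from 36.9 to 58.2, and how far they set the ratios of side 2 was not tested. On side 1 the corresponding ratios were -0.11 (-0.39 to 0.17) for *Myh1* and 0.10 (0.00 to 0.20) for *Myh4*. How much of the muscle RNA in bone spots came from the muscle beside them was not tested.

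**Figure D2:**
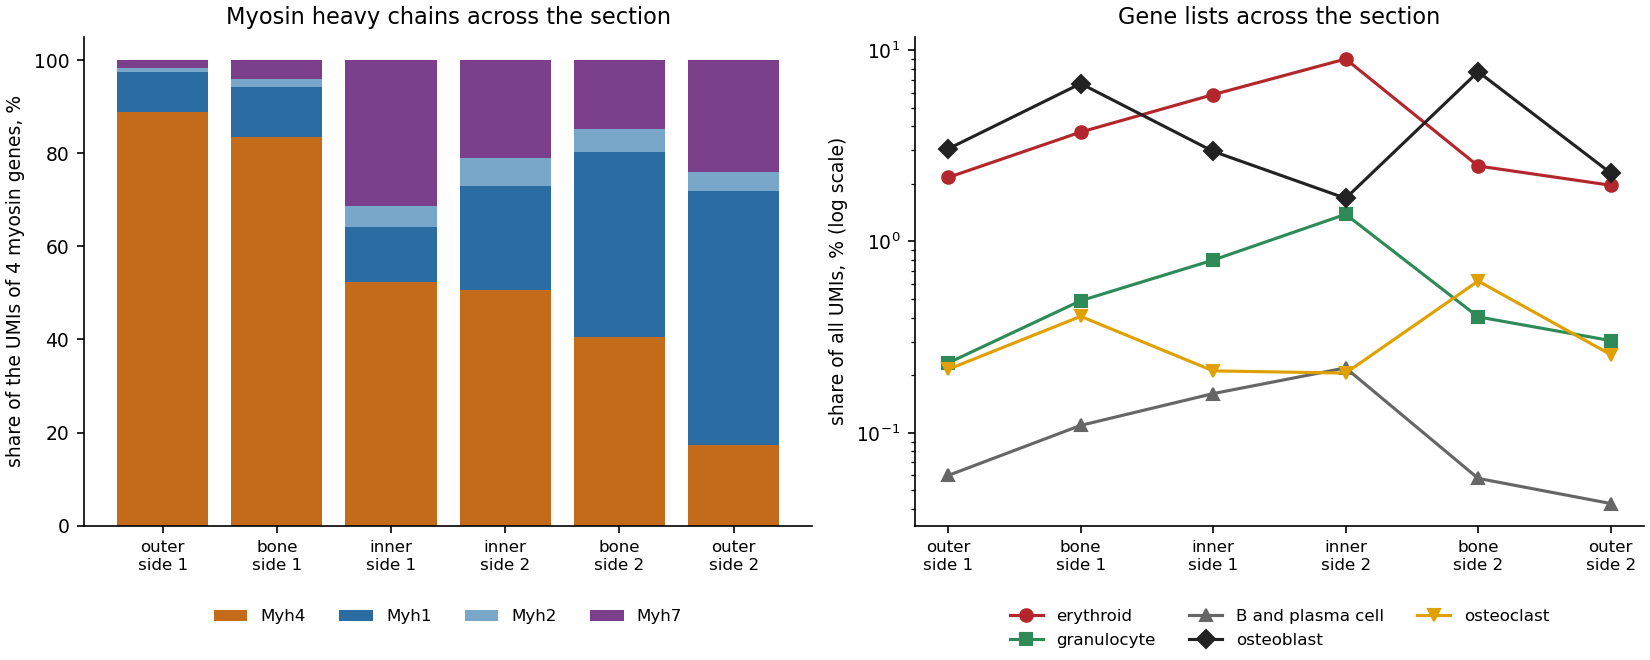
Left, share of each of 4 myosin genes in their summed UMIs (%), and right, share of 5 gene lists in all UMIs (%, log scale), in the outer tissue, the bone and the inner tissue of each side. *Myh4* takes 88.8% outside side 1 and 17.2% outside side 2, and the granulocyte, erythroid and B and plasma cell lists are highest in the inner tissue, whereas the osteoblast and osteoclast lists are highest in the bone.

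Osteoblast genes had similar summed levels on the sides and different positions along them. The median log2 ratio over 10 osteoblast genes with at least 30 UMIs was 0.06, beside 0.01 for all genes, with 5 above 0 and 5 below, and no member was past 2-fold. Without stretch 1, which held 8035 UMIs on side 1 and 90754 on side 2, the median was -0.36. The collagen I chains *Col1a1* and *Col1a2* had log2 ratios of -0.02 (-0.08 to 0.04) and 0.20 (0.16 to 0.25). Osteocalcin (*Bglap*), a late osteoblast protein that binds mineral, had -0.32 (-0.49 to -0.14). *Bglap* has near-identical neighboring copies, so its counts are uncertain. *Sparc*, a collagen-binding matrix protein, had -0.08, and alkaline phosphatase (*Alpl*) and the parathyroid hormone receptor (*Pth1r*) had -0.29 each, with intervals that held 0. The transcription factors *Runx2* and *Sp7* had 0.15 and 0.27 and *Ifitm5*, an osteoblast membrane protein, had 0.02, all with intervals that held 0.

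*Spp1*, *Ibsp* and *Dmp1*, which encode acidic proteins that bind mineral in the bone matrix, had ratios above 0, whereas *Bglap* and *Sparc* did not. Osteopontin (*Spp1*), which is made by osteoblasts, osteoclasts and macrophages, was counted 333 times on side 1 and 841 times on side 2, a level of 5.17 against 10.3. Its log2 ratio was 0.997 (0.81 to 1.18), just under the limit of 2-fold. In stretches 1 to 4 the level was 5.52, 2.94, 7.25 and 3.25 on side 1 and 11.9, 11.4, 7.44 and 1.46 on side 2, so that it was higher on side 2 in all but the last stretch. With the division at the empty row, *Spp1* was past 2-fold, with a log2 ratio of 1.12, and was higher on side 2 in all 4 stretches. Bone sialoprotein (*Ibsp*) had a log2 ratio of 0.54 (0.20 to 0.88) and dentin matrix protein 1 (*Dmp1*), a product of early osteocytes, 0.70 (0.23 to 1.19). A UMI of *Dmp1* was found in 25% of side 1 spots (exact binomial interval 15.02 to 37.4) and 35.8% of side 2 spots (24.5 to 48.5) among the 64 and 67 spots with at least 1000 UMIs, each thinned to that number, and in 3.72% of muscle-rich spots outside the bone. Thinned to 500 UMIs, which kept all bone spots, the order was the opposite, with 15.1% and 13.7%. Without thinning these shares were 46.6%, 61.6% and 9.14%. The share of spots with *Dmp1* therefore gave no stable order of the sides.

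The osteocyte genes were sparsely counted. *Phex*, a membrane peptidase that regulates phosphate, had 9 UMIs on side 1 and 26 on side 2 (log2 ratio 1.19, 0.05 to 2.47). Sclerostin (*Sost*), the osteocyte inhibitor of Wnt signaling, had 39 and 35 UMIs (-0.50, -1.20 to 0.20). *Mepe* had 0.17 and the transcription factor *Irx5* 0.03. Over the 5 osteocyte genes with enough UMIs the median was 0.17, and 1 (*Phex*) was past 2-fold higher, beside 2.61% of all genes. *Pdpn* had 7 and 12 UMIs, and *Fgf23* had 0 and 1. With the division at the empty row the median was 0.44.

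Along the major axis, collagen and osteocalcin levels were unevenly spread on side 2. *Col1a1* had levels of 83.2, 53.1, 14.2 and 11.6 in stretches 1 to 4 of side 2, and 92.3, 48.7, 69.3 and 43.9 on side 1. *Bglap* had 9.15, 5.63, 2.98 and 3.97 on side 2, and 14.2, 5.18, 8.34 and 9.29 on side 1. The summed level of *Col1a1* was close between the sides although side 2 was lower in stretches 1, 3 and 4. In stretches 1 and 2, side 2 had 27 and 24 spots and side 1 had 10 and 12. The summed levels therefore mix side with position along the axis. Stretches 3 and 4 of side 2 held 10 and 12 spots, of which 7 lay across the empty row. For bands divided at the empty row and stretches along it, *Col1a1* had levels of 54.9, 85.0, 40.8 and 35.8 in the band of side 1 and 95.8, 71.7, 41.1 and 11.03 in the band of side 2.

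**Figure D3:**
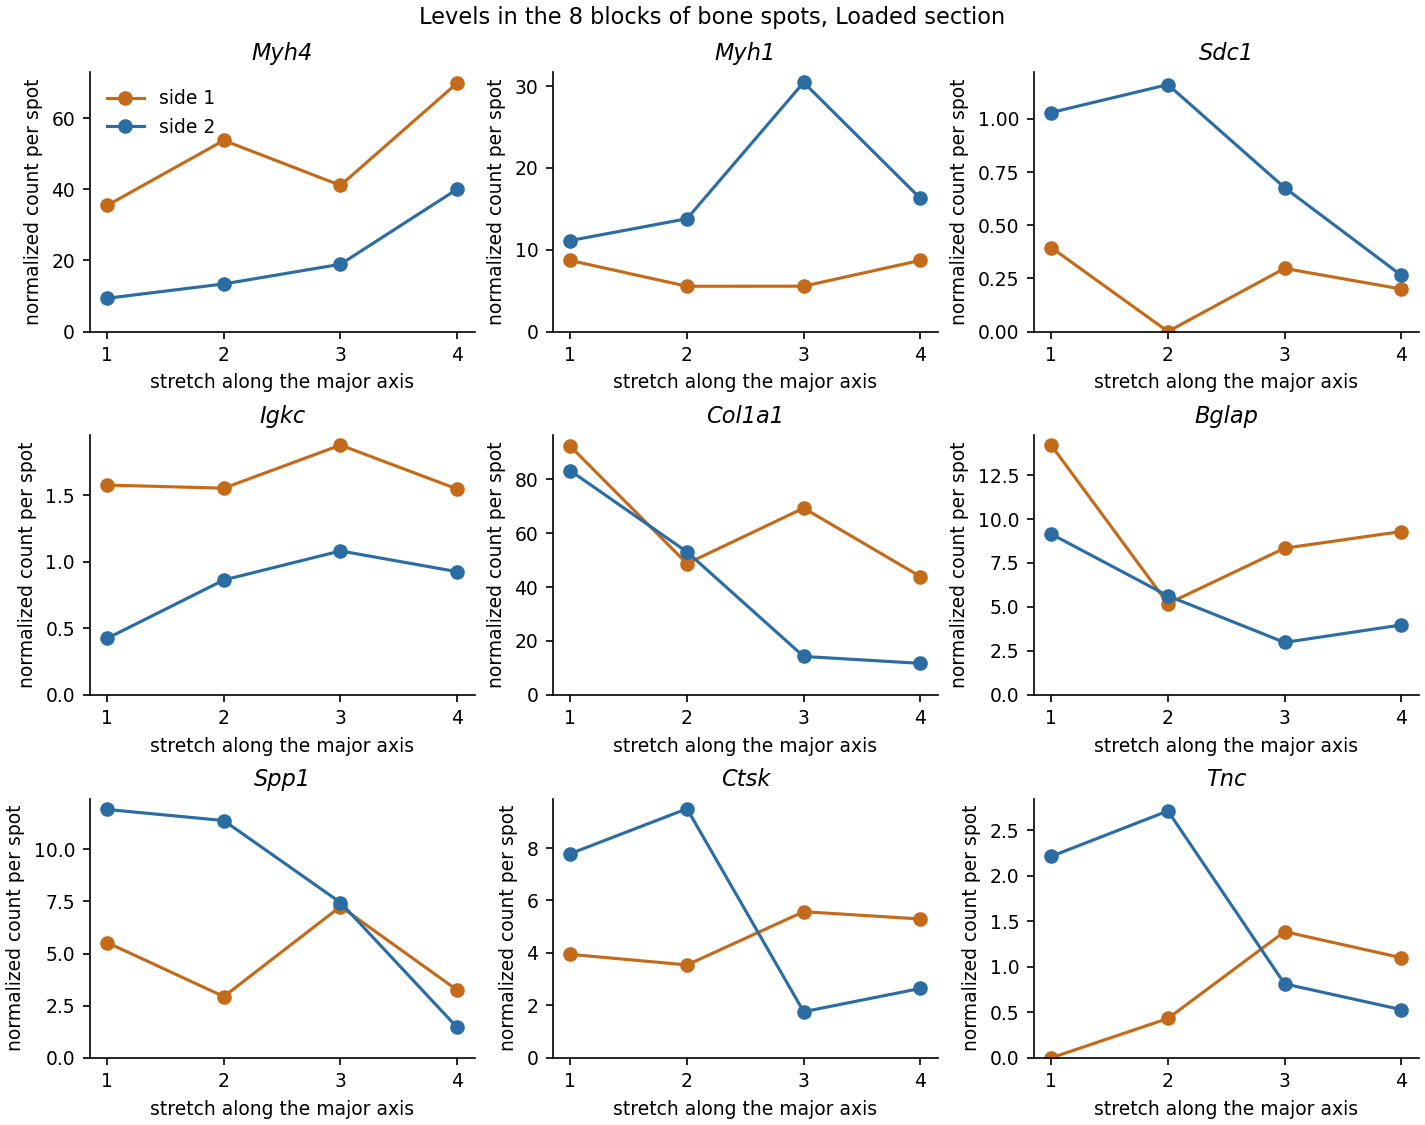
Normalized count per spot of 9 genes in 4 stretches along the major axis, for side 1 and side 2, with 1 point per block of spots and no error bars because blocks are not replicates. *Myh4* and *Igkc* are higher on side 1 and *Myh1* and *Sdc1* on side 2 in all stretches, which the ranking that named them required. *Ctsk* and *Tnc*, named from lists without that requirement, are higher on side 2 in stretches 1 and 2 and on side 1 in stretches 3 and 4. For stretch 3 this order turned with the division at the empty row.

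Osteoclast genes were higher on side 2. The 14 members of the list had 754 UMIs on side 1 (0.406% of all UMIs, exact binomial interval 0.378 to 0.436) and 1387 on side 2 (0.621%, 0.589 to 0.655). All 5 members with at least 30 UMIs had a ratio above 0, none was past 2-fold, and the median was 0.66, or 0.22 without stretch 2. Cathepsin K (*Ctsk*), the protease that degrades bone collagen, had 326 and 609 UMIs, a log2 ratio of 0.56 (0.37 to 0.76). Tartrate-resistant acid phosphatase (*Acp5*) had 113 and 235 (0.72, 0.39 to 1.05). The gelatinase *Mmp9* had 0.35 (0.12 to 0.59), the proton pump subunit *Tcirg1* 0.79 (0.10 to 1.52) and the pump subunit *Atp6v0d2* 0.66 (-0.44 to 1.85).

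For *Ctsk* and *Acp5* the higher levels of side 2 lay in stretches 1 and 2 of the major axis. The level of *Ctsk* in stretches 1 to 4 was 7.79, 9.498, 1.76 and 2.65 on side 2, and 3.95, 3.54, 5.57 and 5.30 on side 1. *Acp5* had 3.06, 3.60, 0.812 and 0.926 on side 2, and 0.789, 0.778, 1.68 and 2.55 on side 1. In the bands divided at the empty row, side 2 was higher in 3 of 4 stretches, stretch 3 included, where *Ctsk* had 9.67 against 7.37 and *Acp5* 3.83 against 2.78. The fusion and receptor genes were too rare for a level. The receptor *Tnfrsf11a* (RANK) had 2 UMIs on side 1 and 11 on side 2, *Ocstamp* had 0 and 6, *Calcr* 1 and 5, *Dcstamp* and *Oscar* 1 and 3 each, and *Siglec15* 1 and 2. *Itgb3* had 11 and 18, *Clcn7* 5 and 9, and the transcription factor *Nfatc1* 10 and 9. Of the osteoclast signals, the ligand *Tnfsf11* (RANKL) had 2 and 9 UMIs, its decoy *Tnfrsf11b* 7 and 3, *Csf1* 1 and 4 and *Il34* 1 and 0.

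Within a side, the summed gene lists differed in position across it. On side 1 the osteoblast list was higher in the spots farther from the split (276 against 115 normalized counts per spot, log2 ratio 1.27, 1.21 to 1.32), and the osteoclast list was higher in the nearer spots (8.09 against 15.04, log2 ratio -0.89, -1.12 to -0.67). On side 2 the osteoblast list had 187 in the farther and 241 in the nearer spots (log2 ratio -0.37, -0.41 to -0.33). Members of the list did not all follow this sum. On side 2 *Col1a1* had 0.00 (-0.08 to 0.08), *Bglap* 0.04 (-0.21 to 0.29) and *Spp1* 0.30 (0.10 to 0.51). On side 1 they had 1.48, 1.58 and 0.68. The osteoclast list had 17.7 and 16.2 on side 2 (0.12, -0.03 to 0.28). Granulocyte genes were lower in the farther spots of both sides, with log2 ratios of -1.57 (-1.79 to -1.34) and -1.43 (-1.64 to -1.23). Erythroid genes had -0.90 and -1.02, and B and plasma cell genes -1.28 and -1.29. In the inner tissue, granulocyte genes took 0.800% of the UMIs beside side 1 and 1.39% beside side 2, against 0.232% and 0.303% in the outer tissue. Erythroid genes took 5.86% and 8.99% in the inner tissue and 2.16% and 1.97% in the outer tissue.

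Syndecan-1 (*Sdc1*), a cell-surface heparan sulfate proteoglycan found on plasma cells and on some stromal and epithelial cells, had the highest ratio among the 186 genes with at least 50 UMIs and the same direction in all 4 stretches. It was counted 14 times on side 1 and 80 times on side 2, with a level of 0.217 against 0.981 and a log2 ratio of 2.18 (1.35 to 3.11). In stretches 1 to 4 its level was 0.395, 0, 0.297 and 0.1998 on side 1 and 1.03, 1.16, 0.677 and 0.265 on side 2. The 5 spots with the most *Sdc1* held 35 of its UMIs and all lay on side 2, and 4 of the 5 spots with the most *Spp1* lay there too. These spots were ranked by UMIs without normalization, and the deepest spot held 12289 UMIs on side 2 and 7517 on side 1. *Acta1* and *Tnnt3*, which were lower on side 2 in sum, also had 4 of their 5 such spots there. After thinning, 3.12% of side 1 spots (0.381 to 10.8) and 26.9% of side 2 spots (16.8 to 39.1) had a UMI, beside 3.15% of muscle-rich spots. Unthinned shares were 15.1%, 46.6% and 13.3%. Beside the bone, *Sdc1* had 25 of 304133 UMIs in the outer spots of side 1 and 46 of 356042 in those of side 2, against 14 of 185711 and 80 of 223309 in the bone. The gene spans chr12:8771323-8793715 (mm10). In Control, *Sdc1* had a log2 ratio of -1.71 between the sides, which are not matched to those of Loaded, so the signs cannot be compared.

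The other genes ranked highest had fewer UMIs. *Plxnb2*, a semaphorin receptor, had 12 and 46 UMIs (log2 ratio 1.60, 0.66 to 2.65), and *Smad3*, the intracellular mediator of TGF-beta signals, 14 and 45 (1.35, 0.45 to 2.33). For *Smad3* the ratio was -0.14 among the 5 and 17 spots with a muscle share below 5%. *Tagln2*, an actin-binding protein, had 51 and 136 UMIs and a log2 ratio of 1.08 (0.60 to 1.57). *Coq8a*, a coenzyme Q synthesis gene, had 1.16, *Rasa3* 1.10, the dynein heavy chain *Dync1h1* 1.07 and *Plpbp* 1.02. *Phf12*, *Isca2* and *Txlna* completed the 12 highest, with 0.90, 0.90 and 0.89. Divided at the empty row, *Rasa3* had 0.72 and *Phf12* 0.28.

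Immunoglobulin genes were higher on side 1. The heavy chain of IgA (*Igha*) was counted 87 times on side 1 and 19 times on side 2, a log2 ratio of -2.53 (-3.33 to -1.81). A single spot of side 1 held 40 of these UMIs, and without it the ratio was -1.67 (-2.52 to -0.88). The kappa light chain (*Igkc*) had levels of 1.58, 1.56, 1.88 and 1.55 in stretches 1 to 4 of side 1 and 0.424, 0.863, 1.08 and 0.926 on side 2, a log2 ratio of -1.26 (-1.75 to -0.79). *Ighm*, the IgM heavy chain, had -1.19 (-1.95 to -0.45) and the B cell receptor component *Cd79a* -0.60 (-1.53 to 0.32). Over 3 members of the B and plasma cell list with enough UMIs the median was -1.19. Of these, 2 were past 2-fold lower, beside 2.23% of all genes, and *Ms4a1* had 6 and 9 UMIs. *Sdc1* and the immunoglobulins were thus high on different sides. In Control the log2 ratios of *Igha* and *Igkc* were -1.10 and -1.86, between sides not matched to those of Loaded, so the signs cannot be compared.

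Marrow genes were also lower on side 2, by less. All 5 erythroid genes with enough UMIs had a ratio below 0, with a median of -0.72 and none past 2-fold. The median was -0.33 without stretch 1 and -0.45 with equal weight for every spot. The hemoglobin chains *Hba-a2*, *Hbb-bs* and *Hbb-bt*, which share sequence with each other, had -0.72, -0.63 and -0.57, and *Alas2*, the first enzyme of erythroid heme synthesis, had -0.96. Granulocyte genes had a median of -0.33 over 7 members, with -0.39 for the antimicrobial peptide *Camp*, -0.33 for *Ncf1*, -0.41 for *S100a8* and -0.17 for *S100a9*. The last 2 were lower on side 2 in sum but higher there in 3 of 4 stretches. This order of the stretches depended on the split, since in the bands divided at the empty row *S100a8* had -0.84 and was lower on side 2 in all 4 stretches, and *S100a9* had -0.48 and was lower in 3. *Camp* had -0.77 there and the granulocyte median was -0.56. The granulocyte median was 0.01 without stretch 1. *Impdh2*, an enzyme of guanine nucleotide synthesis, and *Arhgdib* were among the 12 lowest genes, with -1.23 and -1.21.

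**Figure D4:**
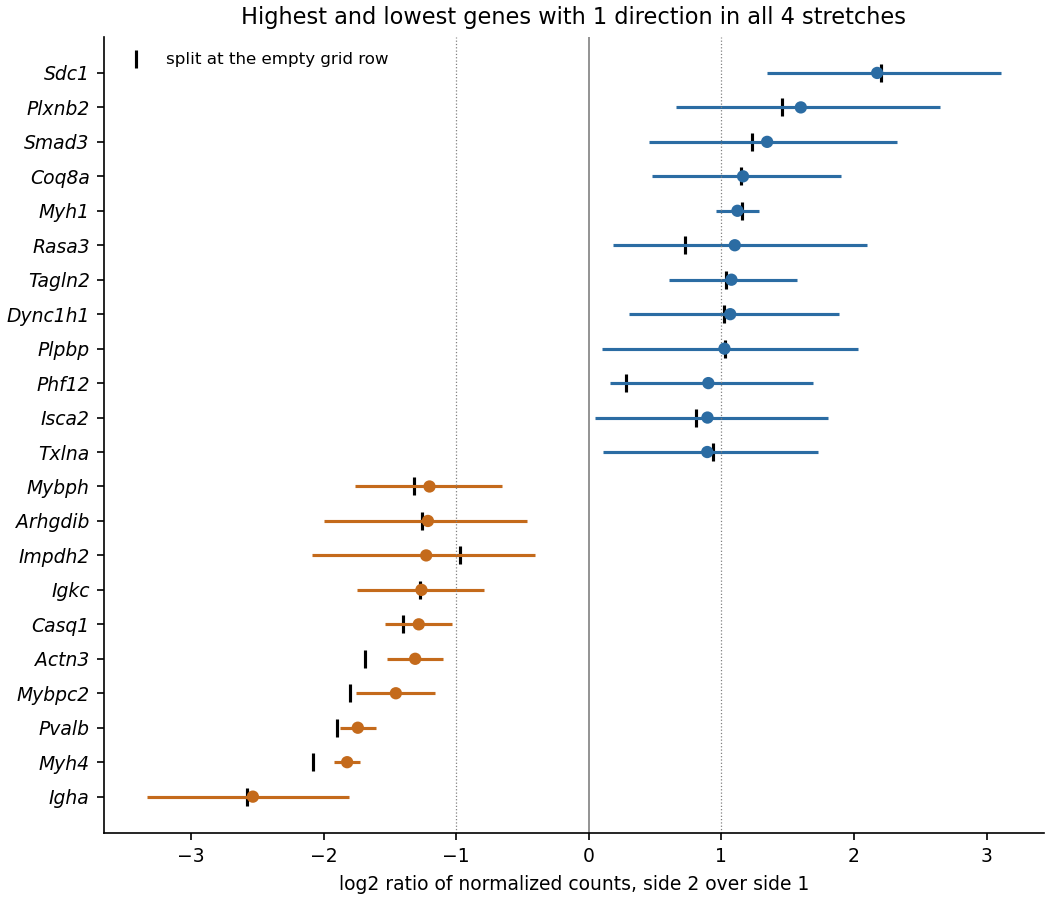
Log2 ratio of side 2 over side 1 (point) with its exact 95% counting interval (line) for the 12 highest and 10 of the 12 lowest genes among those with at least 50 UMIs and the same direction in all 4 stretches. The black tick is the ratio with the division at the empty grid row, and dotted lines mark 2-fold. *Sdc1* and *Igha* have the largest ratios and wide intervals, and *Myh4* and *Pvalb* have the narrowest intervals among the lowest genes.

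Genes of the matrix other than collagen I differed among themselves. Of 9 matricellular genes, which encode regulatory proteins of the matrix, 2, *Tnn* and *Thbs1*, were past 2-fold lower, beside 2.23% of all genes. The list median was -0.46, and 8 of the 9 had a ratio below 0. Tenascin-C (*Tnc*), which is deposited in healing and periosteal tissue, was the exception, with 69 and 174 UMIs and a log2 ratio of 1.00 (0.58 to 1.42), just under the limit of 2-fold. In the bands divided at the empty row it was 1.08, and *Tnc* was higher on side 2 in 3 of 4 stretches. Its level in stretches 1 to 4 was 2.21, 2.71, 0.812 and 0.529 on side 2, and 0, 0.432, 1.38 and 1.10 on side 1. Thrombospondin 1 (*Thbs1*) had -1.12 (-1.76 to -0.49), *Thbs2* -0.19 and *Thbs4*, a tendon and cartilage thrombospondin, -0.40. Divided at the empty row, *Thbs1* had -0.84, not past 2-fold, and the matricellular median was -0.32. *Fmod* and *Dcn*, proteoglycans that space collagen fibrils, had -0.77 (-1.24 to -0.29) and -0.53 (-0.93 to -0.13), *Lum* -0.43 and *Bgn* 0.14. The median over 7 proteoglycans of this family was -0.43, or -0.24 in the bands divided at the empty row. The cartilage gene *Comp* had 0.32 (-0.08 to 0.73) and *Col2a1* -1.15, from 21 and 12 UMIs, and *Acan* and *Sox9* had at most 5 UMIs on a side. The tendon transcription factor *Scx* had 9 and 16 UMIs and *Chad* 4 and 13.

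Genes that prepare collagen were on balance slightly higher on side 2, with a median of 0.30 over 10 members and none past 2-fold. The collagen chaperone *Serpinh1* had 0.37 (0.02 to 0.73), the procollagen protease enhancer *Pcolce* 0.78 (0.27 to 1.30), *Bmp1* 0.22 and the crosslinking enzyme *Lox* 0.52. Without stretch 1 the median was -0.2012, and in the bands divided at the empty row 0.47. Of 5 mineralization genes, 1 (*Phex*, also on the osteocyte list) was past 2-fold higher, beside 2.61% of all genes. The median was 0.66, with 0.31 for the phosphatase *Phospho1*, 0.69 for the pyrophosphate transporter *Ank* and 0.66 for the phosphate transporter *Slc20a2*. Of the Wnt antagonists, *Sfrp4* had 0.19 (-0.38 to 0.77), *Sfrp2* -0.82 (-2.16 to 0.45) and *Dkk3* -0.80 (-2.32 to 0.65). Of the BMP antagonists, *Nbl1* had 0.58 (0.08 to 1.09), whereas *Fst*, *Bmp3* and *Gdf10* had at most 12 UMIs on a side.

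The remaining cell types were represented by few UMIs. Macrophage genes had a median of 0.48 over 6 members, with 0.48 for the complement gene *C1qa*, 0.70 for *C1qb*, 0.49 for *C1qc* and 0.10 for *Cd68*. Endothelial genes had 0.45 over 3 members, of which *Flt1*, a VEGF receptor, was past 2-fold (1.09, 0.00 to 2.30), beside 2.61% of all genes. *Cdh5*, the cadherin of endothelial junctions, had 4 and 20 UMIs, and *Eng* and *Kdr* had 0.45 and 0.25. The pericyte genes *Pdgfrb* and *Rgs5* had 0.57 and 0.66, and the smooth muscle genes *Tagln* and *Acta2* -0.78 and -0.82. Adipocyte genes were divided, with -0.60 for *Fabp4*, -0.10 for *Cfd* and 0.79 for *Lpl*. The myelin genes *Pmp22* and *Mbp* had 0.08 and 0.29. The proliferation genes *Mki67* and *Cdk1* had -0.28 and 0.08, and the immediate early genes *Jun*, *Junb*, *Ier2* and *Egr1* had -0.18, 0.75, 0.40 and -0.34. In the bands divided at the empty row the medians of the macrophage, proliferation and immediate early lists were 0.74, -0.66 and -0.12, beside 0.48, -0.06 and 0.11.

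**Figure D5:**
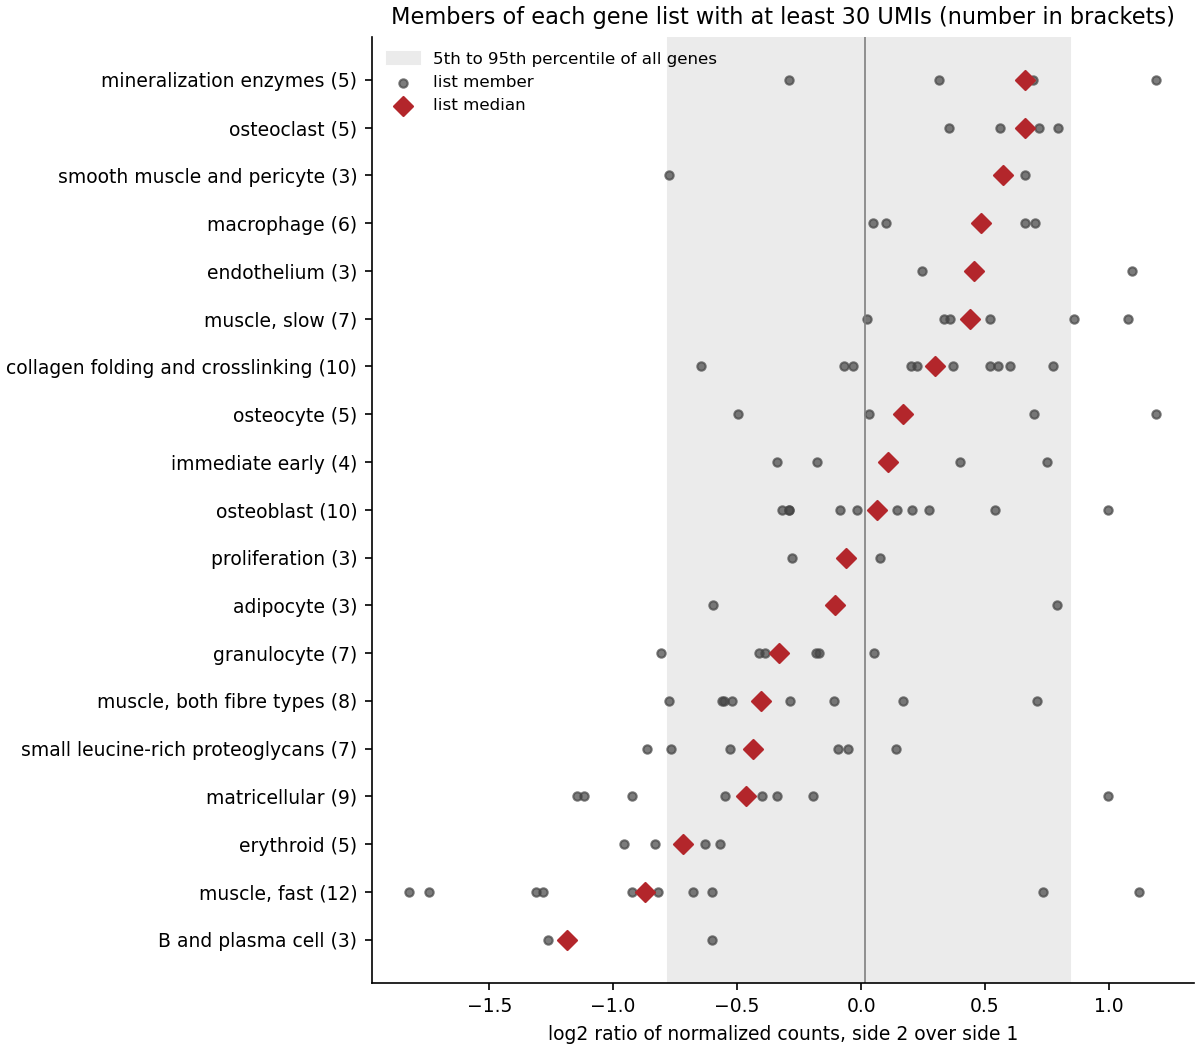
Log2 ratios of side 2 over side 1 for the members of 19 gene lists with at least 30 UMIs (points) and the list median (diamond), for lists with 3 or more such members. The grey area runs from the 5th to the 95th percentile of all 2869 genes, and the fast muscle and the B and plasma cell lists have medians below its lower limit of -0.78.

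Since side 1 had more muscle RNA, the values were also computed in spots low in it. Among spots with a muscle share below 10%, 20 of side 1 and 56 of side 2, 115 genes were past 2-fold higher on side 2 and 35 lower. The median of the fast muscle list was then -0.46, that of the osteoclast list 0.82 and that of the osteoblast list -0.29. Below 5% the osteoclast median was 1.80 and the osteoblast median -0.54. Below 10% the log2 ratio was -1.38 for *Myh4*, 1.37 for *Myh1*, 1.89 for *Sdc1*, -1.29 for *Igkc*, 0.99 for *Plxnb2* and 0.71 for *Spp1*. Below 5%, with 5 and 17 spots, it was -1.09 for *Myh4*, 0.75 for *Myh1*, 1.58 for *Sdc1*, -0.05 for *Igkc* and 0.45 for *Spp1*. The muscle genes, *Myh4* and *Myh1* among them, define these filters, so their own values there are partly set by the choice of spots. The part of muscle RNA in the other differences was not tested.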

How the data were processed

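The Control and Loaded fracture sites, 1 section each, were profiled with the Visium assay for formalin-fixed tissue, which counts ligated probe pairs per spot. The authors processed the reads with Space Ranger 2.0.0 against mm10 and deposited raw UMI counts per gene and spot, and the submitters' notes also name R 4.3.1 and Seurat. The study compared spots by likelihood ratio tests in DESeq2. No such test was made here, since each condition has a single section.

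All 146 listed Loaded bone barcodes were found. Positions were the array column times 50 µm and the array row times 86.6 µm. The members and gene lists were chosen with earlier results of these data known. Size factors were computed in scran 1.30.0 (R 4.3.3) from genes with a mean of at least 0.1 UMI over the bone spots. Python 3.11.15 (scipy 1.17.1, pandas 2.3.3, numpy 2.4.6, matplotlib 3.10.9) gave ratios and plots. They compare summed UMIs over summed size factors, with exact conditional binomial 95% intervals. Ratios were called past 2-fold among genes with at least 30 UMIs, and a side at 0 was set to 3 UMIs for a bound. The ratio and interval code was tested on simulated data.

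Depth was 185711 and 223309 UMIs on the sides and a median of 2626 and 2616 per spot, so single low genes have wide intervals. Named genes were the 12 highest and the 12 lowest ratios among genes with at least 50 UMIs and the same direction in all 4 stretches, all members of the osteoblast, osteocyte, osteoclast and osteoclast signal lists, and up to 4 most counted members of each other list. *Tnn* and *Myh2* were named outside this rule, after their values were seen, and 2 of the 12 lowest genes are not reported here. The 25 lists hold 216 genes, of which 4 had no value. List medians need 3 members. Gene positions are from GENCODE M21 (GRCm38), upstream sequences from RefSeq, and 22 gene identifiers shared their symbol with another. Alternatives were TMM factors (edgeR 4.0.16), library totals, other count minimums, spots low in muscle RNA, other splits and left-out stretches. The split at the empty row and the values without the spot richest in a gene were chosen after seeing the data.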

Additional observations from a re-analysis of the deposited data

How the results depend on the processing

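No paired analysis was possible because each condition has 1 section and the sides carry no replicate numbers. For the 32 named genes with at least 10 UMIs and a log2 ratio of 1 or more in size, 17 alternatives gave 523 values. Of these, 519 had the same sign and 448 still had a log2 ratio of that size. The other count minimums and the setting with no filter leave the ratio of a single gene unchanged, so those values had to agree. Library totals, with or without muscle, erythroid and granulocyte genes, and TMM factors shift all ratios alike, by too little to turn a sign. Many of these genes were ranked by the same direction in all 4 stretches, which favors the same sign when a stretch is left out. Counts of genes past 2-fold depended on the minimum of UMIs, and fewer UMIs give wider ratios. With at least 10 UMIs, 594 genes were higher and 432 lower on side 2, and 888 had the same direction in all stretches. With at least 50 UMIs these were 24, 22 and 186, and with no filter 1261, 1240 and 977. Among spots with a muscle share below 10% they were 115, 35 and 148, and below 5% 32 were higher and 22 lower. The difference in muscle share of UMIs, -3.94 percentage points as reported, was -0.88 below 10%, -0.13 below 5%, -3.60 without spots within 150 µm of the split and -4.32 with the division at the empty row. Spots were kept below 10% and 5% by this same share, so the smaller differences there follow from the filter. The osteoblast median was -0.54 below 5%. Leaving out each stretch in turn gave 45 to 103 genes past 2-fold higher, with 45 without stretch 1, 56 to 84 lower and a muscle difference of -6.30 to -2.96.

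Some list medians changed sign. The immediate early median was -0.44 with at least 10 UMIs, -0.26 with no filter and -0.12 with the division at the empty row. The median of genes of both fiber types, which are part of the filtered muscle share, was 0.29 below 10% muscle and 0.33 below 5%. The adipocyte median was 0.33 below 10% muscle, 0.31 without stretch 2 and 0.18 without stretch 3, with -0.48 as its lowest value over stretches. The erythroid median was 0.18 below 5% muscle. Over left-out stretches, the collagen folding median ran from -0.201 (without stretch 1) to 0.65, and was -0.0036 without stretch 2. The granulocyte median ran from -0.58 to 0.0092 (without stretch 1). Below 5% muscle, *Casq1*, which is part of that share, had 0.37, *Mybph* 0.029, *Smad3* -0.14 and *Rasa3* -0.56. The causes were not tested. With 2869 genes above the count minimum of 19465 in the files and 1 section, differences of low genes and between animals could not be seen.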

Other observations

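Gene groups chosen by their symbols, after the values of the lists were seen, had medians between -0.17 and 0.56, beside 0.01 for all genes. The median log2 ratio of side 2 over side 1 was 0.06 over 23 genes of respiratory complex I, which passes electrons from NADH into the respiratory chain, and 0.08 over 10 genes of complex IV, which reduces oxygen. It was 0.30 over 6 genes of complex III and 0.24 over 11 genes of the ATP synthase. The 20 collagen genes with at least 30 UMIs had a median of 0.15. The 21 proteasome genes, which encode the subunits of the main protease of the cytosol, had -0.17. The 9 genes of the vacuolar proton pump, which acidifies lysosomes and the resorption space of osteoclasts, had 0.37. Past 2-fold higher was 1 of them, beside 2.61% of all genes. Over 4 serpins the median was 0.56, and over 5 histocompatibility genes it was 0.25.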
